A study of Octopus bimaculoides with 95 samples.

Results

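Auricle and ventricle of the branchial heart of the California octopus, Octopus bimaculoides, were compared gene by gene in 6 RNA-sequencing libraries, 3 of each chamber, out of 95 libraries in the series. The members were taken by their tissue label from the table of a sequencing plate, which holds 85 libraries of 46 tissues. All 6 are total RNA of whole tissue, and no treatment, sex, age or genotype is given for them. The labels add a body side for some libraries (auricle 2 left, auricle 3 right, ventricle 1 first right and then corrected to left), and they describe neither the cut between the chambers nor how many octopuses were used. The p-values below therefore measure the spread between libraries, part of which may be technical.

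Cephalopods have a closed circulation with a systemic heart and a pair of branchial hearts, 1 at the base of each gill. The branchial hearts take up blood returning from the body and push it through the gill vessels, and the systemic heart sends the oxygenated blood out again. The branchial heart is more than a muscle, since its tissue takes part in filtering blood and its wall holds cells that take up material from it. The white body, used below for comparison, is the blood-forming organ. Nearly all genes in the table carry only a numeric ID, and no product name was at hand, so genes are described by their levels and by the tissues they share, and not by function.

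Values are TPM, a transcript level scaled by transcript length and by library total. Spike-in RNAs were dropped and each library was rescaled to 1000000. Differences are auricle minus ventricle in log2(TPM + 1), where the added 1 shrinks the difference of a gene with low values. A gene was tested if it reached 1 TPM in at least 2 libraries, and called at an adjusted p under 0.05 with a log2 difference of at least 1 in either direction, by limma with Benjamini-Hochberg adjustment over all genes tested. In bulk tissue, fewer cells of a type and less RNA per cell cannot be told apart.

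The libraries were unequal. Spike-ins took 7.03% (ventricle 2) to 51.4% (auricle 3) of a library. Reads recovered from the steps of low values, a lower bound on depth, ran from 511078 in auricle 3 to 4828622 in auricle 2. A single read was worth a median of 0.0971 to 0.650 TPM, so a value of 0 means only that the gene was not detected at this depth. Auricle 2 and ventricle 2, the deepest pair, stood apart from the others. Across genes, which are not independent replicates, ventricle 1 and ventricle 3 correlated at 0.932 and auricle 1 and auricle 3 at 0.877. Auricle 2 reached 0.821 and 0.723 with the other auricles, but 0.870 with a stellate ganglion library and 0.869 with the male gonad. Ventricle 2 also correlated best with that stellate ganglion library, at 0.839, and about equally with ventricle 1 (0.830) and auricle 2 (0.828). In all, 692 genes were at 10 TPM or more in both auricle 2 and ventricle 2 and at least 4 times the level, plus 1 TPM, of each of the other 4 libraries. The same count was 0 to 7 for the other 8 pairs of an auricle with a ventricle. By their choice, such genes are high in 1 library of each chamber, so no test of the chambers is given for them. Since auricle 2 also held a set of male gonad transcripts, described below, the main results are given with and without it.

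The chambers differed mostly by genes that were present in the auricle and nearly silent in the ventricle. Of 11239 genes tested in 6 libraries, 458 were called (4.08%), of which 390 were higher in the auricle (3.47%) and 68 higher in the ventricle (0.605%). Without auricle 2, 458 of 9830 genes were called (4.66%), 397 higher in the auricle (4.04%) and 61 higher in the ventricle (0.621%). The sets shared 388 genes, 84.7% of each, with the same sign in all 388. The median log2 difference was 4.58 among the auricle genes and -4.20 among the ventricle genes, against 0.10 over all genes tested. Together the 390 auricle genes made up 99226, 66546 and 86256 TPM in auricle 1, 2 and 3, but 1125, 1039 and 1670 TPM in ventricle 1, 2 and 3. Of the 390, 207 stayed under 1 TPM in every ventricle library and 86 were listed at 0 in all 3. The 68 ventricle genes summed to 76496, 104492 and 71426 TPM in the ventricle libraries and to 2045, 2802 and 2494 TPM in the auricle libraries. They were fewer but more abundant, with a median level of 77.0 TPM over the 6 libraries against 26.9 TPM for the auricle genes. Only 3 of the 68 were listed at 0 in all auricle libraries.

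**Figure D1:**
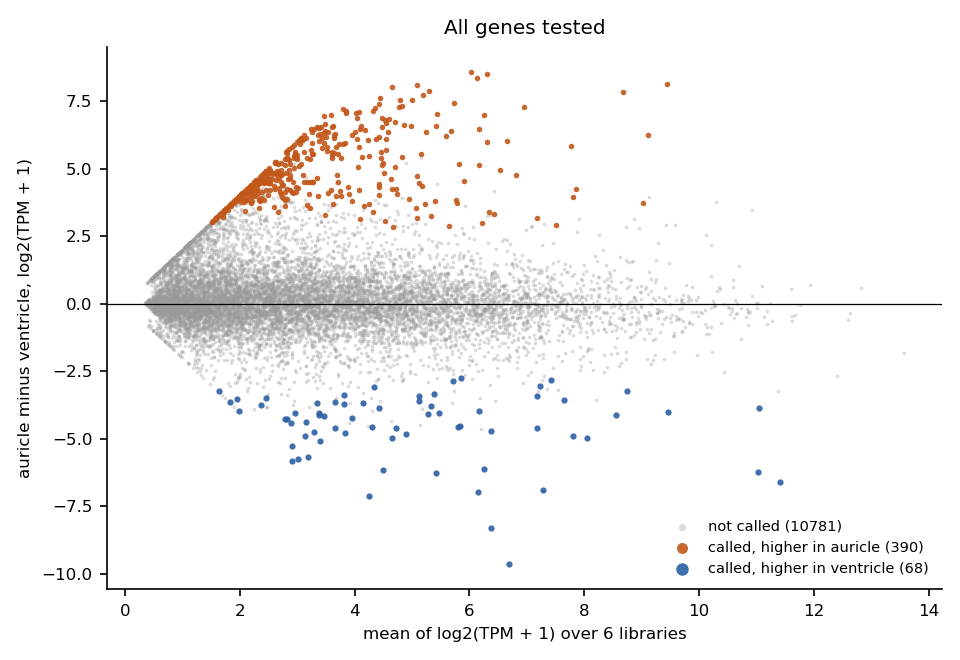
Difference between chambers (vertical axis, auricle minus ventricle on the log2(TPM + 1) scale) against the mean level over 6 libraries (horizontal axis, log2) for all 11239 genes tested. The 390 genes called higher in the auricle crowd the upper edge, where a gene has almost no signal in the ventricle. The 68 called higher in the ventricle have a median level of 77.0 TPM, against 8.72 TPM over all genes tested.

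The number of calls rests on particular libraries. It was 62 without auricle 1, 131 without ventricle 1 and 173 without ventricle 3, while it was 983 (8.75%) in a fit with the replicate number as a block and 878 in that fit without auricle 2. Sample weights gave 2346 (20.9%) and limma-voom on the recovered reads 845 (7.85%). In 6 libraries the sample weights were 4.97 for auricle 1 and 3.54 for ventricle 1, and 0.341 to 1.05 for the others. That fit therefore rests mostly on auricle 1 and ventricle 1. Without regard to a test, every auricle library was above every ventricle library for 12.7% of the genes tested in 6 libraries and for 19.2% in 5, and the reverse held for 4.71% and 13.1%. The direction can be read in each library that was left out of the calling. Of the 397 genes called higher in the auricle without auricle 2, auricle 2 lay above every ventricle library for 392 (98.7%), as it did for 35.6% of all genes tested. Of the 61 ventricle genes it lay below every ventricle library for 58 (95.1%, against 17.8%). Auricle 1 matched all 55 auricle and all 7 ventricle genes called without it (23.7% and 21.4% of genes tested), and auricle 3 matched 417 of 459 and 56 of 65 (30.0% and 25.5%). Ventricle 1 matched 117 of 117 and 13 of 14 (25.7% and 18.2%), ventricle 2 matched 294 of 296 and 52 of 52 (26.8% and 27.3%), and ventricle 3 matched 153 of 154 and 19 of 19 (33.0% and 11.4%). In every case the library left out took the side of its own chamber far more often than over all genes. The share over all genes is not a matched comparison, since called genes were chosen for a large difference. Without auricle 2, for example, 230 of the 397 auricle genes were under 1 TPM in every ventricle library. Little signal is needed to lie above such values.

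The leading genes toward the auricle were high in auricle and mostly at a few TPM or less in ventricle. Among the 10 auricle genes with the smallest adjusted p, 4 had gill as the highest of the other 44 tissues, 2 had skin and 2 the large sucker. LOC106882236 stood at 3230, 620 and 1739 TPM in auricle 1, 2 and 3 and at 2.05, 2.17 and 6.49 TPM in ventricle 1, 2 and 3, with 1483 TPM in gill. Its lowest auricle library was far above its highest ventricle library, and the log2 difference was 8.51 ± 0.78 (SE; adjusted p = 0.00158, limma). LOC106878861 gave 688, 193 and 500 TPM in auricle against 0, 0 and 2.67 TPM in ventricle, and 2719 TPM in gill. The difference was 8.04 ± 0.82 (adjusted p = 0.00158, limma), and auricle 2 was the lowest auricle library, as it was for each of these 4 genes. LOC106883198 (685, 360 and 736 against 0.585, 0.550 and 2.58 TPM) and LOC106878182 (415, 221 and 588 against 0.211, 1.09 and 2.32 TPM) were at 1077 and 460 TPM in gill.

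All 4 were nearly silent in the systemic heart, at 0 to 1.83 TPM, and in blood, at 0 to 5.24 TPM. The clear vessel of the systemic heart, a tissue the labels name but do not describe, held them at 14.1 to 215 TPM.

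Other leading genes had skin as their highest other tissue. LOC106870155 had the largest difference toward the auricle of all genes tested in 6 libraries, 8.61 ± 0.66 (SE; adjusted p = 0.00158, limma). Without auricle 2 its difference was 8.48, below those of other genes, among them LOC106878863 (9.21), LOC106882236 (9.15), LOC106869698 (8.97) and LOC106878861 (8.57). It measured 818, 1538 and 1684 TPM in auricle and 1.01, 3.49 and 2.97 TPM in ventricle, 1448 TPM in skin and 657 TPM in gill. GeneID:106873795 (381, 369 and 288 TPM in auricle, at most 2.43 TPM in ventricle) reached 2041 TPM in skin, 1823 TPM in the large sucker and 1378 TPM in the highest neural tissue. For both genes the mean auricle level lay below that of skin, while the ventricle was close to silent.

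LOC106869698 was at 1226, 545 and 3060 TPM in auricle and at most 4.62 TPM in ventricle, with 2533 TPM in the large sucker and 2356 TPM in gill. LOC106877509 was at 409, 293 and 137 TPM against at most 1.59 TPM, with 421 TPM in the large sucker. Auricle and ventricle libraries did not overlap for either gene. Even larger amounts were carried by LOC106868919 and LOC106877073, which were among the 5 genes with the highest mean over auricle 1 and 3. LOC106868919 measured 20924, 8196 and 9686 TPM in auricle and 16.7, 20.4 and 185 TPM in ventricle (8.16 ± 1.01, adjusted p = 0.00331, limma), with 41929 TPM in the large sucker, 8972 TPM in the highest neural tissue and 8440 TPM in gill. LOC106877073 measured 10725, 1837 and 12035 TPM against 9.94, 21.6 and 77.5 TPM (7.85 ± 1.01, adjusted p = 0.00359, limma), with 32135 TPM in gill, 28596 TPM in the large sucker and 14032 TPM in the highest neural tissue. Both were highest in ventricle 3 among the ventricle libraries.

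Another leading gene had the clear vessel as its highest other tissue. LOC106873803, annotated as a long non-coding RNA, measured 2316, 2001 and 808 TPM in auricle and 9.17, 6.16 and 12.0 TPM in ventricle. It was at 1470 TPM in the clear vessel, against 41.7 TPM in gill and 2.98 TPM in blood. It was also at 818 TPM in the large sucker, 633 TPM in the highest neural tissue and 491 TPM in the male gonad. Its difference was 7.31 ± 0.68 (SE; adjusted p = 0.00158, limma). LOC106873799 (299, 429 and 223 TPM in auricle, 0.778, 1.10 and 0 TPM in ventricle) was low in all heart and vessel libraries, at 0 to 12.2 TPM, and its highest other tissue was the stellate ganglion at 214 TPM. It had a low level in gill, 3.95 TPM.

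Leaving out auricle 2 brought 4 more genes into the leading 10, all of them lower in auricle 2 than in the other auricles. LOC106878863 measured 934, 93.7 and 2440 TPM in auricle and 1.63, 2.3 and 0.899 TPM in ventricle, with 3292 TPM in gill. Its difference was 7.88 ± 1.08 in 6 libraries (adjusted p = 0.00441, limma) and 9.21 ± 0.77 in 5 (adjusted p = 0.00248, limma), and without auricle 1 it missed the threshold (adjusted p = 0.064, limma). The long non-coding RNA LOC106871916 (352, 228 and 1882 TPM, at most 2.73 TPM in ventricle) was highest in the small sucker, at 3162 TPM. GeneID:106882335 (1130, 401 and 769 TPM, at most 6.81 TPM in ventricle) was shared with the large sucker (1538 TPM), gill (705 TPM) and the clear vessel (444 TPM). GeneID:106879967 was listed at 0 in all ventricle libraries and measured 197, 20.3 and 450 TPM in auricle and 230 TPM in gill; it missed the threshold without auricle 1 (adjusted p = 0.0843, limma).

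**Figure D2:**
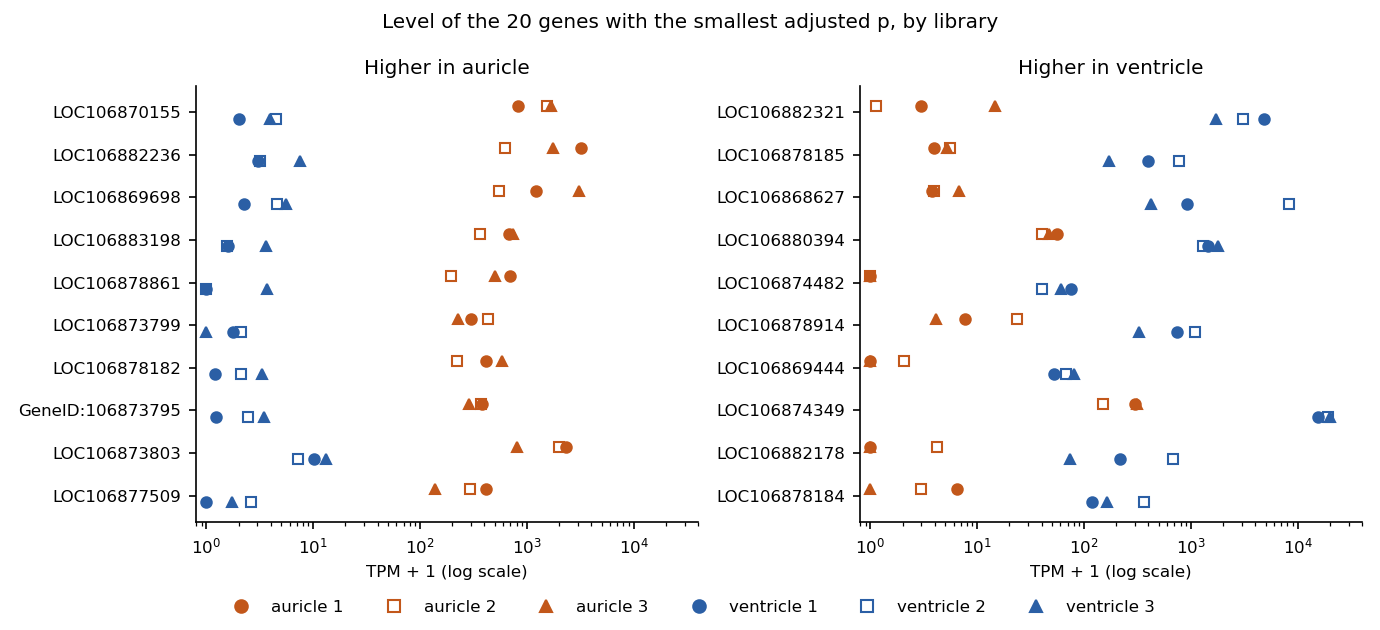
TPM + 1 (log axis) in each library for the 10 genes with the smallest adjusted p in each direction; circles, squares and triangles are replicates 1, 2 and 3, orange for auricle and blue for ventricle. For every gene shown the chambers do not overlap, and the auricle genes sit at a few TPM or less in ventricle except LOC106873803 at 6.16 to 12.0 TPM and LOC106882236 at up to 6.49 TPM.

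Most ventricle genes had a lower level in every other tissue, though many were detected in some of them. In chromatophores 16 of the 68 were under 1 TPM (23.5%, against 16.6% of all genes tested). In the male gonad it was 20 (29.4%, against 16.6%), and in the systemic heart 35 (51.5%, against 36.3%). Gill had 36 (52.9%, against 32.7%) and blood 45 (66.2%, against 38.5%). The middle subesophageal brain went the other way (44.1%, against 55.0%). LOC106882321 showed the largest difference of all genes tested in 6 libraries, -9.66 ± 0.95 (SE; adjusted p = 0.00158, limma), and -8.81 ± 0.93 without auricle 2. It measured 4860, 3070 and 1721 TPM in ventricle 1, 2 and 3 and 1.99, 0.116 and 13.5 TPM in auricle 1, 2 and 3. The next tissue was the ova library at 156 TPM, and it was at 0 TPM in gill and systemic heart and 2.52 TPM in blood. LOC106868627 measured 911, 8301 and 424 TPM in ventricle, uneven but always above the 2.81, 2.95 and 5.72 TPM of auricle (-8.31 ± 1.02, adjusted p = 0.00331, limma). No other tissue exceeded 8.72 TPM.

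LOC106880394 was even among libraries, with 1435, 1288 and 1792 TPM in ventricle and 54.5, 39.4 and 46.2 TPM in auricle (-4.98 ± 0.63, adjusted p = 0.00345, limma). The highest other tissue was the aorta, at 14.3 TPM. LOC106874482 measured 73.9, 39.3 and 60.3 TPM in ventricle and was listed at 0 in all 3 auricle libraries, gill, systemic heart and aorta; its highest other level was 0.820 TPM, in blood. LOC106869444 (51.5, 66.3 and 79.3 TPM in ventricle, 0, 1.06 and 0 TPM in auricle) and LOC106882178 (217, 685 and 73.3 TPM against 0, 3.20 and 0 TPM) reached at most 14.6 TPM (ova) and 5.03 TPM (male gonad) elsewhere. LOC106882178 missed the threshold without auricle 1 (adjusted p = 0.0635, limma). LOC106878184 (117, 365 and 164 TPM against 5.39, 1.97 and 0 TPM) and the long non-coding RNA LOC106878185 (392, 774 and 169 TPM against 2.93, 4.61 and 4.26 TPM) lie next to each other in the RefSeq gene order, and no other tissue exceeded 3.90 and 6.56 TPM.

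The most abundant called ventricle genes were lower elsewhere too. LOC106876168 measured 23605, 48397 and 17288 TPM in ventricle and 157, 1025 and 129 TPM in auricle, a difference of -6.61 ± 1.08 (SE; adjusted p = 0.01, limma). The next tissues were the white body at 2752 TPM and blood at 993 TPM. It missed the threshold without auricle 1 (adjusted p = 0.088, limma) and without ventricle 1 (adjusted p = 0.0641, limma). LOC106874349 measured 15505, 19338 and 20038 TPM against 298, 148 and 312 TPM (-6.24 ± 0.84, adjusted p = 0.00422, limma; 0.0528 without auricle 1). Its highest other tissue was the middle subesophageal brain, at 262 TPM.

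Other abundant genes of the chambers did not pass. LOC106872434 had the second highest ventricle mean, at 33013, 17469 and 21048 TPM in ventricle and 9588, 7297 and 3830 TPM in auricle. The chambers did not overlap, but the adjusted p was 0.649 (limma). LOC106876301 ranged from 5747 to 43925 TPM in ventricle and from 819 to 8294 TPM in auricle, so its chambers overlapped. It passed with sample weights (adjusted p = 0.00417, limma), a fit that rests mostly on auricle 1 (1441 TPM) and ventricle 1 (43925 TPM). Auricle 3 (8294 TPM) was above ventricle 3 (5747 TPM). LOC106870394, LOC106876508 and LOC106877184 also overlapped between chambers. LOC106867166 measured 9552, 2732 and 10476 TPM in auricle and 828, 243 and 947 TPM in ventricle, and gave an adjusted p of 0.0925 (limma). Its chambers did not overlap, and it passed with the replicate block (adjusted p = 0.00946, limma), sample weights (0.000874), the fit over the replicated non-neural tissues (0.0319) and quantile scaling (0.0481).

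Some ventricle genes were shared. LOC106878914 (737, 1095 and 327 TPM in ventricle, 6.75, 22.4 and 3.15 TPM in auricle; adjusted p = 0.004, limma, and 0.0578 without auricle 1) reached 406 TPM in the posterior subesophageal lobe. LOC106870341 was also present in the systemic heart, with 115, 219 and 112 TPM in ventricle, 3.17, 20.5 and 0 TPM in auricle, 108 TPM in the systemic heart and 158 TPM in its intake. It passed in 6 libraries (-4.99 ± 1.05, adjusted p = 0.0289, limma) but not with any single library other than auricle 2 left out (adjusted p = 0.0552 to 0.135, limma). LOC106870990 (77.7, 80.1 and 65.9 TPM against 2.19, 5.25 and 0 TPM; adjusted p = 0.0129, limma) missed the threshold without auricle 1, ventricle 1 or ventricle 3 (adjusted p = 0.0648 to 0.0984, limma).

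How far each chamber's genes are its own was counted over all 46 tissues of the plate. Of the 68 ventricle genes, 55 (80.9%) had their highest tissue mean in the ventricle, against 4.92% of all genes tested. Of the 390 auricle genes, 62 (15.9%) had it in the auricle, against 2.39%. The calls themselves favour the chamber in which a gene is high, so these shares are a description. A stricter count took called genes at 10 TPM or more and at 10 times every other tissue, and found 22 in the ventricle and 1 in the auricle, out of 31 and 1 among all genes tested. Without auricle 2 it found 22 and 2, out of 32 and 2.

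The single auricle gene of that kind in 6 libraries was LOC106880126, with 171, 104 and 277 TPM in auricle, 0, 0.214 and 3.52 TPM in ventricle and 13.2 TPM in the clear vessel. Among the 22 ventricle genes, LOC106870545 (1078, 507 and 918 TPM in ventricle, 0.167, 3.74 and 44.2 TPM in auricle) and LOC106870542 (2094, 898 and 2028 TPM against 92.4, 89.4 and 86.7 TPM) are neighbours in the gene order. The former reached 11.1 TPM elsewhere, and the latter 151 TPM in the clear vessel. LOC106878188 was at 1718, 556 and 1967 TPM in ventricle, 41.3, 15.6 and 96.6 TPM in auricle and 61.4 TPM in the clear vessel. LOC106873966 was at 2158, 1206 and 1858 TPM in ventricle but at 3.81, 1.29 and 261 TPM in auricle, where auricle 3 alone was high. This gene missed the threshold without auricle 2 (adjusted p = 0.0644, limma).

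The highest tissue of the remaining auricle genes lay elsewhere. It was the male gonad for 77 (19.7%, against 5.32% of all genes tested), the clear vessel for 47 (12.1%, against 1.46%), gill for 44 (11.3%, against 2.82%), the large sucker for 39 (10.0%, against 2.02%) and skin for 32 (8.21%, against 2.64%). Without auricle 2 the male gonad was still highest for 70 of 397 (17.6%, against 4.74%). Gill was highest for 51 (12.8%, against 2.93%) and the clear vessel for 45 (11.3%, against 1.53%).

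**Figure D3:**
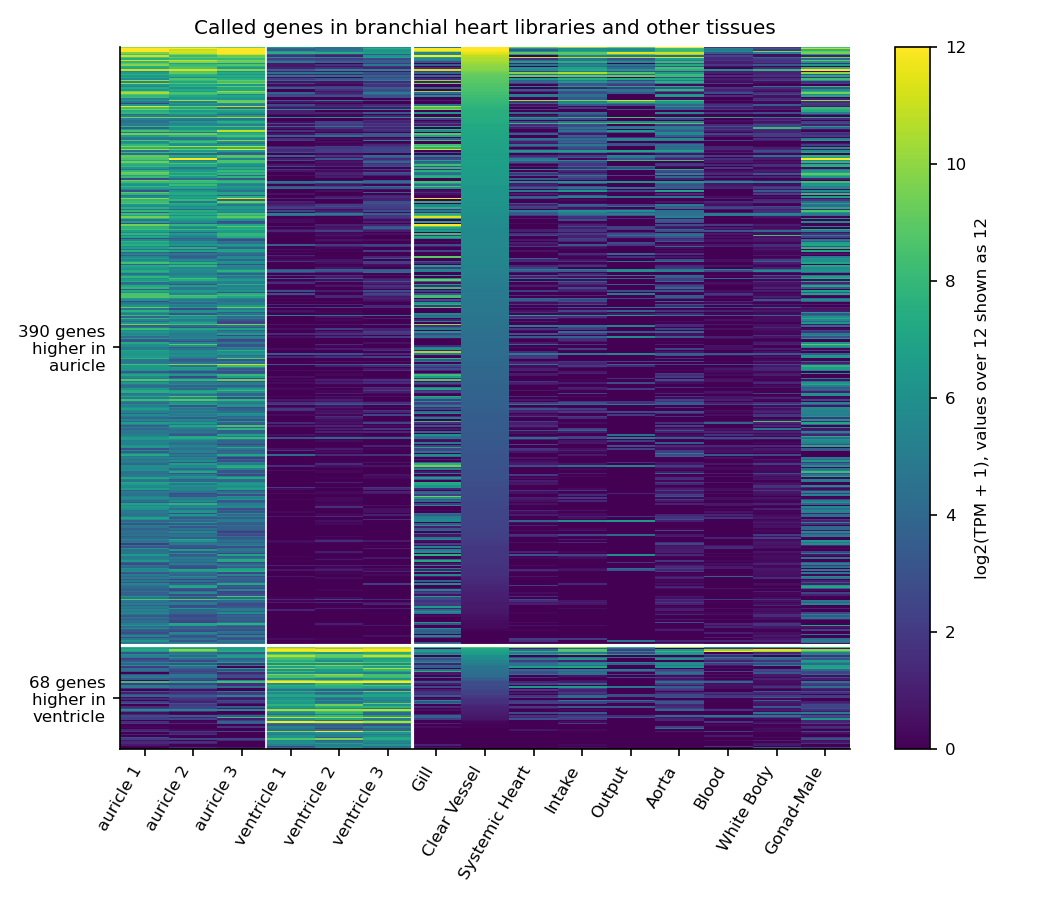
Level (log2(TPM + 1), color, values over 12 shown as 12) of the 390 auricle and 68 ventricle genes (rows, ordered within each set by their clear vessel level) in the 6 branchial heart libraries and 9 other tissues (columns). The auricle genes continue into the clear vessel and in part into gill and male gonad, but hardly into systemic heart, blood or white body, and the ventricle genes are dark in most other columns.

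Gill, systemic heart and blood were then read directly. For each called gene, the level in a tissue was counted as nearer the auricle or nearer the ventricle on the log2(TPM + 1) scale. Most of these tissues have a single library, so the shares carry no error. For comparison, the share is also given among genes with a log2 difference of at least 1 in the same direction that were not called, 2002 toward the auricle and 1198 toward the ventricle.

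Gill was nearer the auricle for 175 of 390 auricle genes (44.9%), close to the 41.4% of uncalled genes, and for 202 of 397 (50.9%, against 44.1%) without auricle 2. In gill 132 of the 390 were under 1 TPM (33.8%), near the 32.7% of all genes tested. The clear vessel was nearer the auricle for 288 (73.8%, against 49.6% of uncalled genes) and for 271 of 397 (68.3%, against 45.1%) without auricle 2, the highest share of the 44 other tissues in both cases. There 31 of the 390 were under 1 TPM (7.9%, against 27.5% of all genes tested). Among non-neural tissues the small sucker (56.7%, against 47.6% of uncalled genes) and the large sucker (195 of 390 genes, against 40.7%) stood above the uncalled genes. Skin (51.8%, against 49.3%) was near them, and male gonad (53.6%, against 60.2%) and chromatophores (53.1%, against 59.5%) were below them. Without auricle 2 the male gonad gave 45.3%, against 42.6%. The shares in 21 neural tissues ran from 12.8% to 57.9% with a median of 19.5%.

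The systemic heart lay near the other end. It was nearer the auricle for 39 of 390 genes (10.0%, against 21.8%), and 241 were under 1 TPM there (61.8%, against 36.3% of all genes tested). Without auricle 2 the share was 8.1%, against 16.1%. Its intake and output and the aorta gave 13.6%, 14.1% and 17.7%, against 28.6%, 27.7% and 30.0%. In blood 3 genes (0.8%, against 13.8%) were nearer the auricle and 301 were under 1 TPM (77.2%, against 38.5% of all genes tested), and in the white body 13 genes (3.3%, against 25.1%). Blood and white body had the lowest shares of all 44 tissues. The anterior salivary gland (5.1%, against 4.6%), mantle (6.9%, against 13.1%) and posterior salivary gland (7.7%, against 8.8%) were also below the systemic heart.

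The 68 ventricle genes were rarely near their ventricle level in another tissue. The ova library had the highest share, 14 genes (20.6%, against 53.9% of uncalled genes). The intake of the systemic heart had 10 (14.7%, against 33.5%), and the aorta and the clear vessel 7 each (10.3%, against 30.4% and 28.7%). The systemic heart itself had 5 (7.4%, against 21.5%), gill 2 (2.9%, against 29.0%) and blood 1 (1.5%, against 28.0%). In 6 libraries no tissue of the 44 exceeded 20.6%, and in the mantle the count was 0. Without auricle 2 the ova library gave 17 of 61 (27.9%, against 73.8%), the olfactory lobe 16 (26.2%, against 68.1%), the intake 11, the systemic heart 5 (8.2%), and gill and blood 2 each (3.3%).

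**Figure D4:**
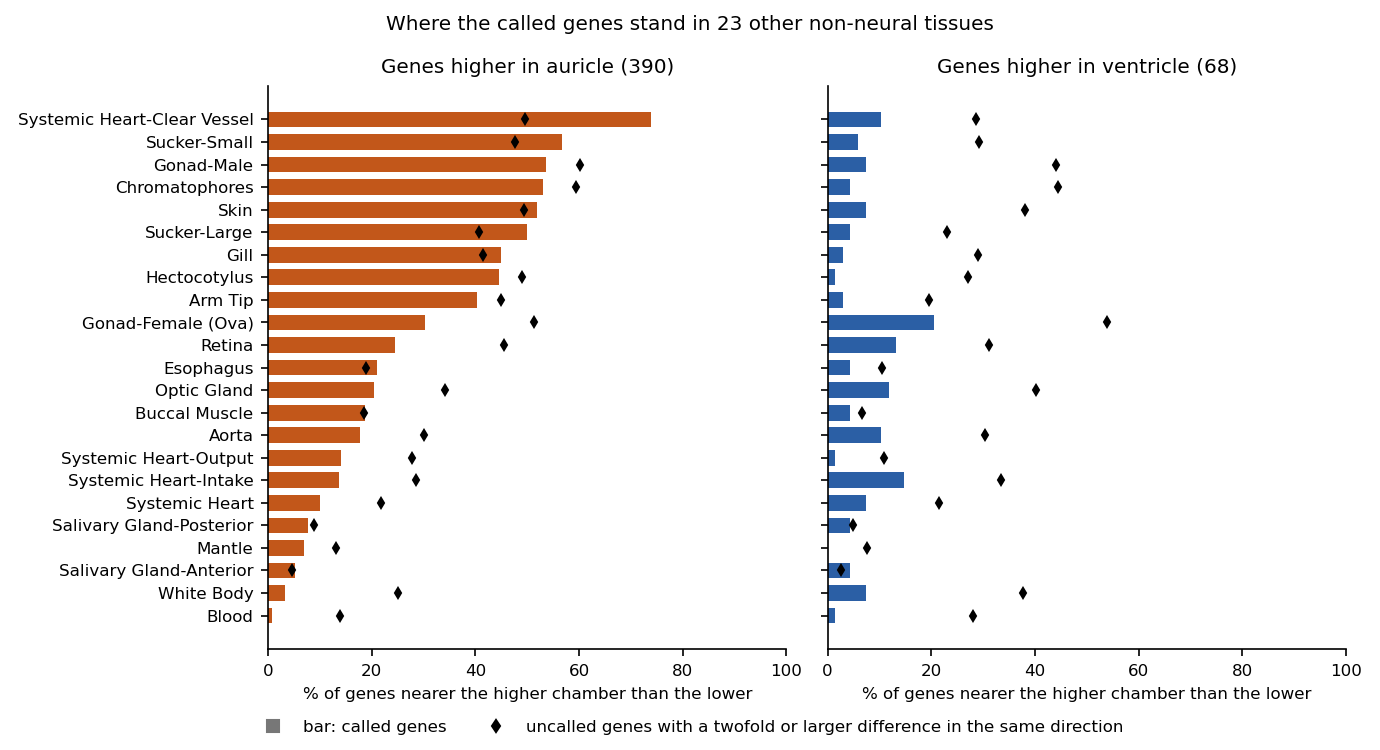
Percentage of called genes (bars) whose level in another non-neural tissue was nearer the chamber where the gene was higher, for auricle genes (left) and ventricle genes (right); diamonds give the same share among uncalled genes with a log2 difference of at least 1. The clear vessel bar of the auricle genes reaches 73.8% and stands beyond its diamond at 49.6%, while systemic heart (10.0%) and blood (0.8%) are short, and the ventricle bars all stay at or under 20.6%.

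The same question was asked from the side of the other tissues, with lists built without any branchial heart library. A list holds the genes at 20 TPM or more in a tissue and at 10 times every other tissue's mean. The clear vessel list has 21 genes, and all 21 reached 1 TPM in every auricle library, against 4, 4 and 10 in ventricle 1, 2 and 3. Of the 21, 17 were called higher in the auricle and 0 higher in the ventricle, with and without auricle 2. Over all genes tested 3.47% and 0.605% were called in these directions in 6 libraries, and 4.04% and 0.621% in 5. The median difference of the list was 4.47 in 6 libraries. LOC106874951 measured 708, 366 and 177 TPM in auricle and 0, 0.197 and 8.32 TPM in ventricle (7.33 ± 0.97, adjusted p = 0.004, limma). LOC106867217, with 510, 124 and 73.9 TPM against 0.737, 0 and 3.25 TPM, was at 1169 TPM in the clear vessel itself.

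The 4 genes of the list that were not called included a pair with higher values in the ventricle. LOC106884083 measured 609, 178 and 322 TPM in auricle and 2291, 551 and 2026 TPM in ventricle, and LOC106873206 measured 224, 90.8 and 931 TPM against 1510, 364 and 2436 TPM (adjusted p = 0.32 and 0.496, limma). Because of them the summed level of the list did not separate the chambers, at 3693, 1819 and 2375 TPM in auricle and 3910, 961 and 4604 TPM in ventricle. LOC106870543 (612, 187 and 127 against 43.6, 12.7 and 26.7 TPM) gave an adjusted p of 0.0535 (limma), and LOC106883698 overlapped between chambers.

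The gill list has 17 genes, of which 10 were tested. Of these, 7 were called higher in the auricle, 8 without auricle 2, and 0 higher in the ventricle, beside 3.47% and 4.04% of all genes called toward the auricle. The list summed to 4063, 685 and 3282 TPM in auricle and 30.0, 11.8 and 83.5 TPM in ventricle, so the chambers did not overlap. Most of it came from LOC106872951, LOC106878863 and LOC106883197. LOC106872951 measured 2211, 270 and 518 TPM in auricle and 2.14, 1.01 and 69.1 TPM in ventricle (6.48 ± 1.32, adjusted p = 0.0255, limma), against 40130 TPM in gill. LOC106883197 measured 690, 239 and 130 TPM against 0, 1.05 and 1.22 TPM (7.40 ± 0.81, adjusted p = 0.00198, limma), and 4709 TPM in gill.

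The gill list was not carried over as a whole. LOC106867574, LOC106873800 and LOC106884500, at 43.8, 186 and 34.4 TPM in gill, were listed at 0 in all 6 branchial heart libraries. LOC106867599 went the other way, with 0, 1.82 and 0 TPM in auricle and 13.1, 6.38 and 10.1 TPM in ventricle, and did not pass (adjusted p = 0.10, limma). Of the 17 genes, 9, 12 and 9 reached 1 TPM in auricle 1, 2 and 3 and 4, 4 and 3 in ventricle 1, 2 and 3. Whether part of the auricle values stems from gill tissue taken along was not tested.

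Blood genes overlapped between the chambers in 6 libraries. The blood list has 8 genes, all tested. By limma 0 were called in 6 or in 5 libraries, beside 4.08% and 4.66% of all genes tested. With so few genes, 0 calls say little. In each fit 1 gene of the list had an unadjusted p under 0.05 (limma). In 6 libraries limma-voom on the recovered reads called 0, and the fits with the replicate block or sample weights called 1 each. In 6 libraries no gene of the list separated all auricle from all ventricle libraries. Over all genes tested 12.7% did so with the auricle higher and 4.71% with the ventricle higher. Without auricle 2, 2 of the 8 genes were higher in every ventricle library, beside 13.1% of all genes tested. They were LOC106869978 and LOC106874424. The latter was at 0.585 and 0 TPM in auricle 1 and 3 and at 4.48, 30.9 and 0.898 TPM in ventricle. The whole blood list summed to 1541, 2544 and 414 TPM in auricle and 1425, 2718 and 966 TPM in ventricle. LOC106872507, at 68657 TPM in blood, stood at 655, 732 and 181 TPM in auricle and 515, 794 and 323 TPM in ventricle. Both chambers held blood transcripts far below their level in blood itself.

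Male gonad genes marked the auricle, and auricle 2 above all. The list of 66 genes summed to 948, 11762 and 178 TPM in auricle 1, 2 and 3 and to 11.5, 55.1 and 43.1 TPM in ventricle 1, 2 and 3. The numbers at 1 TPM or more were 35, 47 and 22 in auricle and 4, 12 and 4 in ventricle. LOC106877708, at 5826 TPM in the male gonad, measured 377, 7439 and 42.8 TPM in auricle and 0.976, 8.56 and 1.79 TPM in ventricle. Auricle 2 was over the male gonad library itself for this gene, yet auricle 1 and auricle 3 were also above all ventricle libraries. Of 37 list genes tested in 6 libraries 9 were called higher in the auricle, and of 25 tested without auricle 2 it was 8, beside 3.47% and 4.04% of all genes. Leaving the whole list out of the table changed the number of calls to 446.

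LOC106880793 of this list did not follow auricle 2, at 12.0, 15.7 and 11.6 TPM in auricle and 0 in all ventricle libraries (3.80 ± 0.75, adjusted p = 0.0216, limma). Auricle 2 alone held 268 genes at 10 TPM or more and over 4 times the level, plus 1 TPM, of every other branchial heart library, and 101 of them had the male gonad as highest other tissue. The counts were 18 for auricle 1 and 136 for auricle 3. LOC106877389 was 1 of them, with 8.57, 935 and 1.08 TPM in auricle, at most 1.14 TPM in ventricle and 84.5 TPM in the male gonad. Whether the male gonad transcripts come from neighbouring tissue or from the library preparation was not tested.

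Other genes far higher in auricle 2 than in its replicates were high in ventricle 2 as well. LOC106870342 measured 3.54, 3134 and 13.4 TPM in auricle and 0, 4168 and 6.52 TPM in ventricle, and 13864 TPM in mantle. The long non-coding RNA LOC106881958 was listed at 0 in auricle 1 and 3 and ventricle 1 and 3 but measured 571 and 479 TPM in auricle 2 and ventricle 2. GeneID:106874347 was at 309 and 57.2 TPM in these libraries and under 1 TPM in the other 4. The long non-coding RNA LOC106883915, at 185 and 7.62 TPM there and 0 in the other 4, was highest in the stellate ganglion. The 4 genes of the mantle list summed to 654 TPM in auricle 2 and 138 TPM in ventricle 2, and to 4.89 to 20.7 TPM in the other 4 libraries. Without both libraries 381 genes were called (4.26%), an alternative chosen after the data had been seen.

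The ova list of 225 genes, of which 57 were tested, had 1 gene called higher in the auricle and 2 higher in the ventricle, too few to set against the 3.47% and 0.605% of all genes. Its sums of 5047, 3422 and 1809 TPM in ventricle against 154, 466 and 163 TPM in auricle came mostly from LOC106882321, described above. The neural list of 18 genes, 13 of them tested, had 0 calls by limma in 6 and in 5 libraries, beside 4.08% and 4.66% of all genes tested. With so few genes, 0 calls say little. At an unadjusted p under 0.05 (limma) there were 2 and 3 genes of the list. In 6 libraries limma-voom called 1 of them, the replicate block 2 and sample weights 1. The systemic heart itself gave a list of 1 gene, listed at 0 in all 6 libraries.

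**Figure D5:**
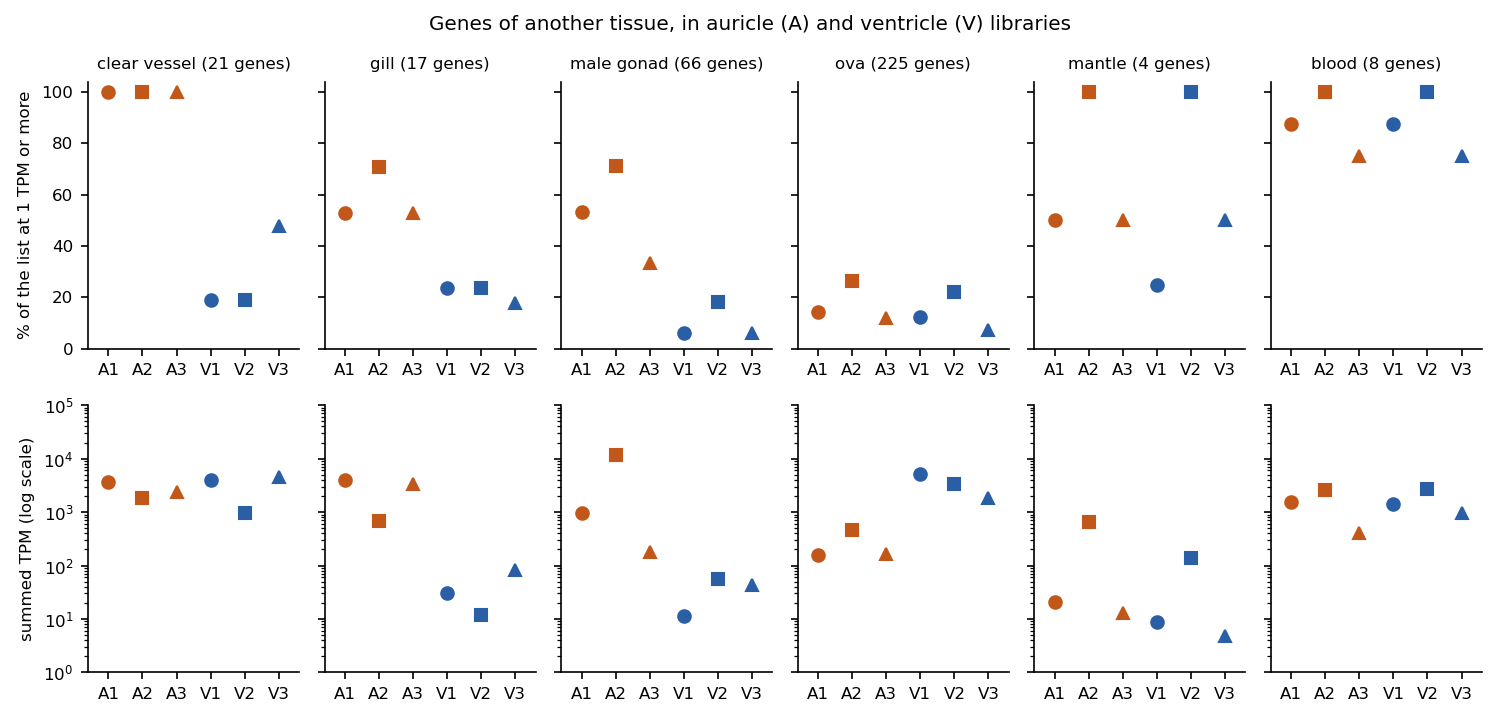
Share of each list's genes at 1 TPM or more (top row, percent) and summed TPM of the list (bottom row, log axis) in auricle (A1 to A3, orange) and ventricle (V1 to V3, blue) libraries. The clear vessel list is detected in full in each auricle library but not separated by its sum, gill and male gonad lists are higher in all auricle libraries by both measures, mantle follows libraries A2 and V2, and blood overlaps.

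Called genes often lay side by side in the RefSeq gene order. Of 349 auricle genes with a position, 51 (14.6%) were next to another auricle gene, against 3.63% of the other genes tested. Of 61 ventricle genes it was 4 (6.6%, against 0.62%). Overlapping or near-identical neighbours can share reads, and whether counting used strand or dropped ambiguous reads is not given in the sources used here, so neighbours are not independent.

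In 6 libraries there were 3 runs of 3 adjacent auricle genes, none of which stayed whole without auricle 2, and their levels in other tissues differed from run to run. LOC106867608 (78.9, 121 and 4.50 TPM in auricle), LOC106867606 (24.3, 22.7 and 14.5 TPM) and LOC106867605 (36.4, 40.5 and 3.63 TPM) were listed at 0 in all ventricle libraries, and were at 83.2, 14.5 and 26.1 TPM in the male gonad. Without auricle 2, LOC106867608 and LOC106867605 missed the threshold (adjusted p = 0.0628 and 0.0665, limma). LOC106877462 (162, 396 and 92.2 TPM against at most 2.21 TPM in ventricle) was at 946 TPM in the clear vessel and 363 TPM in the aorta, and its neighbours in the run are LOC106876587 and LOC106875578. The third run, LOC106877396, LOC106883663 and LOC106877509, is followed after 1 silent gene by LOC106877512 and LOC106877511, also called. In this group of 5 called genes, gill held LOC106877509, LOC106883663 and LOC106877511 at 348, 59.3 and 54.2 TPM but LOC106877396 and LOC106877512 at 1.94 and 5.68 TPM, and in the systemic heart 4 were at 0 TPM and LOC106883663 was at 1.20 TPM.

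Adjacent pairs included several of the strongest genes. LOC106878861 and LOC106878863, and LOC106883198 and LOC106883197, were pairs in which both members were high in gill. LOC106868919 lay next to LOC106868909 (2094, 2513 and 868 TPM in auricle, 12.4, 38.9 and 42.6 TPM in ventricle). LOC106877073 lay next to the long non-coding RNA LOC106877071 (674, 603 and 183 TPM against 0.605, 3.99 and 9.34 TPM). LOC106869698 lay next to LOC106869697 (47.5, 5.40 and 108 TPM against 0.430, 0 and 0 TPM), a gene at 6462 TPM in the small sucker.

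Long non-coding RNAs made up 18 of the 390 auricle genes (4.62%) and 1 of the 68 ventricle genes (1.47%), against 3.11% of all genes tested. Without auricle 2 they made up 20 of 397 (5.04%) and 3 of 61 (4.92%). By label, auricle 1 and ventricle 3 share a style of sample description that the other 4 do not. Within that style the median log2 difference was 4.84 for the auricle genes and -4.34 for the ventricle genes, and among the other 4 libraries it was 4.58 and -4.06. The genes were called on these same libraries, so a difference within both styles follows from their choice and is a description only. With the style as a term in the fit 361 genes were called.

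Of 18 table entries that carry a name of their own in place of an ID, 11 were listed at 0 in all 6 libraries, among them NOS and IRELamide1. Most of these entries, NOS included, were at 0 in every other tissue as well, so their 0 says nothing particular about the branchial heart. GNRH was at 1.35 TPM in auricle 1 and at 0 in the other 5. Betsin measured 16.7, 63.3 and 4.88 TPM in auricle and 0, 0.549 and 0 TPM in ventricle, with 159 TPM in the inferior buccal ganglion. The chambers did not overlap, but the difference of 4.03 ± 1.00 did not pass (adjusted p = 0.0587, limma), nor did it without auricle 2 (adjusted p = 0.066, limma). Sp38 was at 5.22, 105 and 4.56 TPM in auricle and 0.728, 2.74 and 1.60 TPM in ventricle (adjusted p = 0.391, limma), with auricle 2 far above the rest. Insulin1 was highest in auricle 2 (24.5 TPM) and ventricle 2 (13.6 TPM) and did not pass (adjusted p = 1, limma). APGW, VLPep3 and Sp12 stayed at or under 4.14 TPM in every library.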

How the data were processed

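Per the labels, RNA of whole tissue was made into cDNA libraries with NEBNext kits. The authors deposited TPM values per table entry; the submitters' processing notes name Trimmomatic 0.32, STAR 2.3, featureCounts and edgeR 3.14.0 without saying how each was used. Build, annotation and strand setting are not stated in the labels or file headers. A second deposited TPM table holds no branchial heart library and was not used.

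Of 26467 entries, 92 spike-ins were dropped, each library was rescaled to 1000000, and the entry with the highest mean was kept for each of 17545 genes. Of 17527 gene IDs, 15476 matched a RefSeq gene table (ASM119413v2), used for names, biotype and gene order only. Genes at 1 TPM or more in at least 2 of the fitted libraries were tested in log2(TPM + 1) with limma 3.58.1 in R 4.3.3, and tables and plots were made with Python 3.11.15. Reads were recovered from the steps of low values within a tolerance of 0.05 of whole numbers for 15498 genes, and cover 52.4% to 70.3% of a library's TPM.

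Deviations from the group means correlated at 0.338, 0.759 and 0.349 between same-numbered libraries of the chambers (11239 genes). Each mean covers only 3 libraries, so the deviations within a chamber cancel out. The agreement of auricle 2 with ventricle 2 thus forces the values among libraries 1 and 3 to be positive on the whole. Their positive sign is no evidence that these libraries deviated together. Only auricle 2 and ventricle 2 stood out, at 0.759. Auricle 1 correlated best with ventricle 3, at 0.408. Auricle 3 was about as close to ventricle 1 (0.336) as to ventricle 3 (0.349). The correlations therefore do not establish a pairing by number for the other libraries, and the labels do not state one. Blocked values are given only as an alternative fit that assumes this pairing.

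Genes were named by rule: the 10 with the smallest adjusted p in each direction, in 6 and in 5 libraries, among those with a mean of 10 TPM or more in the higher chamber, the 5 most abundant per chamber, the 5 with the largest excess in auricle 2, and 18 named sequences. Other genes named (members of lists, runs and pairs, and restricted genes) were chosen after their values were seen. The members and lists were chosen with earlier results of these data known. Lists by protein function were not built. The procedure was tested on simulated data.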

Additional observations from a re-analysis of the deposited data

How the results depend on the processing

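None of the 29 named genes called in 6 libraries changed direction under the alternatives run. Among genes not called, the difference of LOC106870342 went from 0.90 to -1.96 and that of Insulin1 from 0.40 to -0.81 without auricle 2. Of the 29 called genes, 21 kept their call without auricle 1 and 8 did not. In 6 libraries the count of 458 became 273 with no filter on low values, 695 in a fit over the replicated non-neural tissues, 2346 with sample weights, 845 with limma-voom on recovered reads and 983 with the replicate block that pairs same-numbered libraries. Leaving out 1 library at a time gave 62 to 524. In 5 libraries without auricle 2, the count of 458 became 177 with no filter, 293 with TPM as deposited, 825 with sample weights, 861 with limma-voom, 278 with a term for the label style and 878 with the replicate block, which left 1 residual degree of freedom. Leaving out 1 more library gave 102 to 381. The cause was not tested. The share of calls higher in the auricle was 85.2% in 6 libraries but 67.9% with sample weights (1592 against 754). Quantile scaling gave 434 calls and put the median over all genes tested at -0.19 in place of 0.10. Betsin passed under some alternatives, for example with a pseudocount of 0.5 (adjusted p = 0.0399, limma) and with the replicate block (adjusted p = 0.0195, limma). Rescaling over genes (470 and 447 calls) and leaving out both auricle 2 and ventricle 2 (381) were chosen after seeing the data. Depth limits low genes most in auricle 3, where 1 read was worth a median of 0.650 TPM.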
